A study of Mus musculus with 16 samples.

Results

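The regions described here are the accessible chromatin regions of mouse fibroblasts at day 4 and at day 10 of chemical reprogramming. They were found by joining the peak list of day 4 and the peak list of day 10 on chromosomes 1 to 19, X and Y wherever peaks shared at least 1 bp. This gave 68217 regions, of 165616 regions in all 8 peak lists of the study. A region was called kept where both lists had a peak in it, lost where only day 4 had one, and gained where only day 10 had one.

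Open chromatin was measured by ATAC-seq, an assay whose transposase inserts sequencing adapters where DNA is accessible. The 16 samples of the study cover days 0, 2, 4, 6, 8, 10 and 12 of reprogramming and induced pluripotent stem cells (iPSC), with 2 samples each. Both stages compared here started from mouse embryonic fibroblasts (MEF) of passages 1 to 3, taken from E13.5 embryos of the strain 129XOG2. Per the labels, the cells were moved from fibroblast medium to reprogramming medium, which was changed every 2 days and daily from day 4 to day 8. Day 4 and day 10 samples carry the same strain and cell type labels ("Reprogramming intermediate"). They thus differ by time in culture and by the medium changes between those days. The labels do not list the compounds of the reprogramming medium.

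Each stage has 1 deposited peak list made from 2 samples, and no source used here states how they were combined. No spread between replicates could be computed, so the values below describe 2 lists, with no test of the difference between the stages and no p-value. In a bulk sample, a region that is less open in every cell and a region that is open in fewer cells cannot be told apart. The day 4 list held 41647 peaks (23.2 Mb, median width 479 bp) and the day 10 list 43542 peaks (22.6 Mb, median width 434 bp). Their background pileups, the lowest local read pileup recovered from the deposited values and a measure of depth, were 1.23 and 0.968. Across the 8 lists, the background pileup ranged from 0.248 at day 12 to 3.08 at day 2, so coverage in the other lists is read beside their depth.

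Mesenchymal cells such as fibroblasts are held in that state by transcription factors of the Twist, Prrx, Snail and Zeb families. The Snail and Zeb factors bind E-boxes in the promoters of epithelial genes and repress them, and the miR-200 microRNAs in turn target Zeb mRNAs. Reprogramming of fibroblasts passes through a mesenchymal-to-epithelial transition, and chemical reprogramming of mouse fibroblasts is known to pass through a state with genes of the extraembryonic endoderm, the lineage that lines the yolk sac.

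Sequences of 8 start windows, picked after values were seen, are shown as examples of gene ends covered at day 10 and not at day 4 (Epcam, Cldn4, Zfp42, Hnf4a, Nr5a2) and at day 4 and not at day 10 (Prrx1, Twist2, Sparc). Each runs 5′ to 3′ along the gene's strand, from 250 bases before the start site to 50 bases after it, from RefSeq on GRCm38.p6. Capitals mark matches, on either strand, to the motifs searched. These are CACCTG (the E-box bound by Zeb and Snail factors, CAGGTG on the other strand), GGGCGG (the GC box bound by SP and KLF factors), CCAAT (NF-Y), TGANTCA (AP-1), GGAATG (TEAD), GATAAG (bound by Gata family factors), ATTTGCAT (the octamer bound by OCT4), TGTGGT (RUNX), AACCNGTT (grainyhead factors) and TGACGTCA (the cyclic AMP response element).
Epcam start window, chr17:87635729-87636028, plus strand: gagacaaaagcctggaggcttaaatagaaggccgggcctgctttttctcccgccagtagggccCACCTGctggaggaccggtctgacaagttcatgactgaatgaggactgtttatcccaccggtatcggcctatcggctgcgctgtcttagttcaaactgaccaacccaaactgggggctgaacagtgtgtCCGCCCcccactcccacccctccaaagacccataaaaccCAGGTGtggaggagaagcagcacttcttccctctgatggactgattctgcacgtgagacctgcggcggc
Cldn4 start window, chr5:134946885-134947184, minus strand: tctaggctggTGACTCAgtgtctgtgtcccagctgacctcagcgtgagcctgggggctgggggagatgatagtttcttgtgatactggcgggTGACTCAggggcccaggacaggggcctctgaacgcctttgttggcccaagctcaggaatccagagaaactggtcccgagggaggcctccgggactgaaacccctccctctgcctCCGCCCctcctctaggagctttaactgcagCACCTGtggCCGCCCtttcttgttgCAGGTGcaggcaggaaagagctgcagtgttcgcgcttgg
Zfp42 start window, chr8:43306960-43307259, minus strand: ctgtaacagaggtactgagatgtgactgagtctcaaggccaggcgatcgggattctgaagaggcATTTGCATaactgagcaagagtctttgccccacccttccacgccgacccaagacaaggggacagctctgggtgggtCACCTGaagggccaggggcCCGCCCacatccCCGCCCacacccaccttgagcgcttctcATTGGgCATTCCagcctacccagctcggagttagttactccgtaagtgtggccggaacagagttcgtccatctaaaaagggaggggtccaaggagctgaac
Hnf4a start window, chr2:163506607-163506906, plus strand: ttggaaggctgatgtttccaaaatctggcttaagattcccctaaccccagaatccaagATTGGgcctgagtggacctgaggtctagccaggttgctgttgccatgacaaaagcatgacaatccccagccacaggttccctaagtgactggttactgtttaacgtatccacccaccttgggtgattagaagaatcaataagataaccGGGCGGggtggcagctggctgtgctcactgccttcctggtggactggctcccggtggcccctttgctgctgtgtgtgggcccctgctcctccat
Nr5a2 start window, chr1:136960399-136960698, minus strand: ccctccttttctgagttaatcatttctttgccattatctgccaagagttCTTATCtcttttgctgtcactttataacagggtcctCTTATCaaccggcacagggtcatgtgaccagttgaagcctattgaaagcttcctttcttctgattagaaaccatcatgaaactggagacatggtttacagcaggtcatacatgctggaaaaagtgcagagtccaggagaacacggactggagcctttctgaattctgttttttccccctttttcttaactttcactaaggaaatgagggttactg
Prrx1 start window, chr1:163313601-163313900, minus strand: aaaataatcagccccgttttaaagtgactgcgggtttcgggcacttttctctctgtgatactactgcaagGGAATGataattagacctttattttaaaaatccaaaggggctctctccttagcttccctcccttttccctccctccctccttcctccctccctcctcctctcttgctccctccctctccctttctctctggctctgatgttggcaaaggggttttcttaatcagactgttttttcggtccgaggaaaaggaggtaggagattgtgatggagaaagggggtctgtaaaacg
Twist2 start window, chr1:91801211-91801510, plus strand: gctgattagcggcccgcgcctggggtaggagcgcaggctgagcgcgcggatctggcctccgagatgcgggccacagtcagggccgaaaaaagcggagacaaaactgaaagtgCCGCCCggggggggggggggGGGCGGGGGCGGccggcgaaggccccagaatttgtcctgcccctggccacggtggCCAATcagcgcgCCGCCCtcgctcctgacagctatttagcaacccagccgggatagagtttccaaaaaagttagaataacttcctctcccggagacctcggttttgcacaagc
Sparc start window, chr11:55420031-55420330, minus strand: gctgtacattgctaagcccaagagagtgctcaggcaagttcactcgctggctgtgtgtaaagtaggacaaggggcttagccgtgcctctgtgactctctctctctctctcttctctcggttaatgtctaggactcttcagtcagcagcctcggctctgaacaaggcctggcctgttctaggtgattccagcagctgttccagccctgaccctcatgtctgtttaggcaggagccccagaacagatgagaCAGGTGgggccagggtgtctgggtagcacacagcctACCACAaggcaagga
The windows of Epcam, an epithelial adhesion molecule, and Cldn4, a tight junction claudin, each held 2 CACCTG E-boxes. The window of Zfp42, the pluripotency marker also called Rex1, held 1 E-box and 1 octamer. Those of Hnf4a, a liver and visceral endoderm factor, of Nr5a2, a nuclear receptor of pluripotent and endoderm cells, and of the mesenchymal factors Prrx1 and Twist2 held no CACCTG. That of Sparc, a secreted matrix protein, held 1, so the E-box occurred in windows of both kinds.

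Mature microRNAs are shown for loci of the epithelial, pluripotent and mesenchymal states that the changed regions touch, with the seed (bases 2 to 8) in capitals, again from RefSeq on GRCm38.p6. This set of loci was chosen after values were seen.
mmu-miR-200b-3p: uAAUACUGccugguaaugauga
mmu-miR-200c-3p: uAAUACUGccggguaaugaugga
mmu-miR-429-3p: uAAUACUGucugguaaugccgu
mmu-miR-200a-3p: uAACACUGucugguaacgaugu
mmu-miR-141-3p: uAACACUGucugguaaagaugg
mmu-miR-294-3p: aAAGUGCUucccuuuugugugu
mmu-miR-302b-3p: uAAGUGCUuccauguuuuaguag
mmu-miR-199a-5p: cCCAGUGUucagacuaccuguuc
miR-200b, miR-200c and miR-429 share the seed AAUACUG, and miR-200a and miR-141 share AACACUG. miR-294 and miR-302b, microRNAs of pluripotent cells from separate clusters, share AAGUGCU. miR-199a-5p, a microRNA of mesenchymal cells, comes from separate loci that did not change alike, as given below.

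Of the 68217 regions, 16531 were kept (24.2%, 95% interval 23.9 to 24.6), 24881 were lost (36.5% of all) and 26805 were gained (39.3% of all). Intervals here and below are exact Clopper-Pearson intervals and cover counting error only. Kept regions were 39.9% of the day 4 regions and 38.1% of the day 10 regions. In base pairs, the lists shared 8.68 Mb of the 37.1 Mb that either covered, a Jaccard index of 0.234. Most regions of either stage were thus absent from the list of the other. Few were near misses, since 845 lost and 947 gained regions lay within 500 bp of a peak of the other list.

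Kept regions were the wider and stronger ones. Single peaks in kept regions had a median width of 639 bp at day 4, against 403 bp for lost regions, and 645 bp at day 10, against 352 bp for gained regions. Kept regions as such, which join peaks of both lists, had a median width of 817 bp. The fold enrichment, which is the authors' own value for each peak, had a median of 6.24 at day 4 for kept and 4.93 for lost regions. At day 10 the medians were 7.91 for kept and 5.48 for gained regions. Ranked by the authors' score within the day 4 list, the share of regions kept was 14.2% in the lowest 10% and 86.5% in the highest 10%. In the day 10 list these shares were 11.1% and 89.5%. Lost and gained regions were also found among strong peaks: 36.4% of lost and 35.4% of gained regions lay in the better-scored 50% of their own list.

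The other 6 lists separated lost from gained regions by time. The day 0 list covered 34.5% of the lost regions, the day 2 list 80.6% and the day 6 list 61.2%, whereas the day 8 list covered 9.08%, the day 12 list 1.75% and the iPSC list 10.4%. Of the gained regions, the lists of days 0, 2 and 6 covered 15.1%, 24.8% and 15.8%, and those of day 8, day 12 and iPSC 47.6%, 23.8% and 25.9%. Day 12 had the shallowest list, and kept regions too were covered least there (61.8%, against 79.1% to 96.6% in the other 5 lists). The order of lost and gained regions changed between day 6 and day 8, where the day 6 list was the deeper of the pair (background pileup 2.12 against 0.682).

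**Figure D1:**
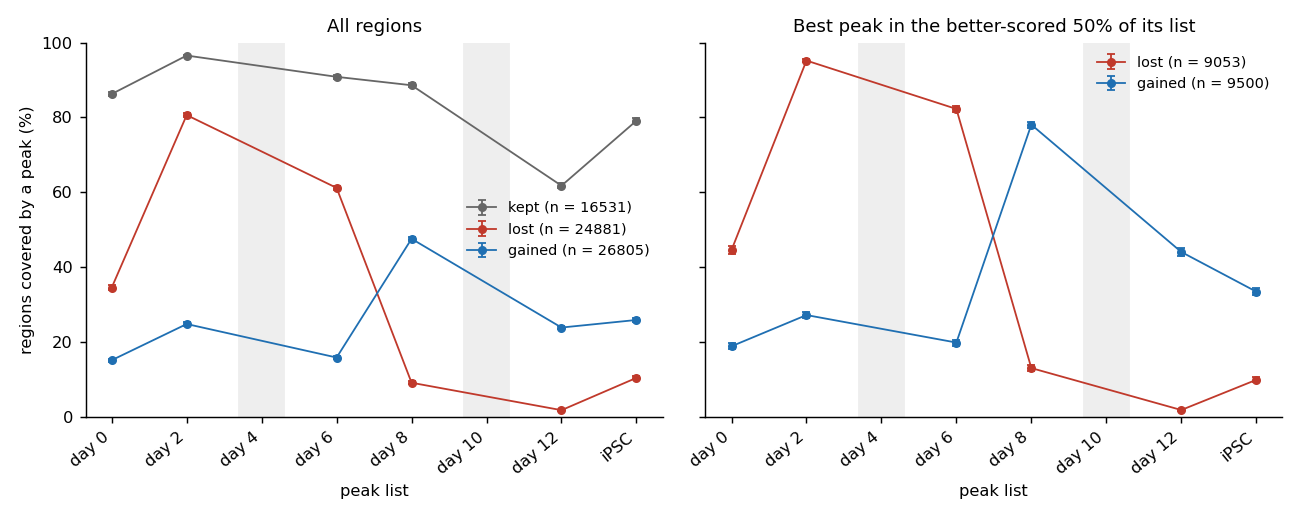
Share of regions (y axis, percent) that a peak of each of the other 6 lists covers (x axis). All kept, lost and gained regions are on the left. Lost and gained regions in the better-scored 50% of their own list are on the right. Bars are exact 95% intervals for counting error, lines only join points, and grey bands mark the lists that define the classes. Lost regions are at 61.2% for day 6 and 9.08% for day 8, and gained regions at 15.8% and 47.6%.

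Of the 563 lost regions in the best-scored 10% of the day 4 list, the lists of days 2 and 6 covered 99.3% and 97.0%, and those of days 8 and 12 covered 21.7% and 2.31%. The first 3 of these shares were above those of all lost regions. The fourth, with an interval of 1.24 to 3.92, was close to the 1.75% of all lost regions. Of the 455 gained regions in the best-scored 10% of the day 10 list, the day 6 list covered 19.8%, the day 8 list 97.6% and the day 12 list 84.8%.

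Many changed regions were in neither the day 0 nor the iPSC list. Of the lost regions, 60.6% (60.0 to 61.2) were covered neither at day 0 nor in iPSC, and of the gained regions 66.3% (65.8 to 66.9). With the better-scored 50% of each of the 2 compared lists, 51.1% of lost regions were covered at day 0 and 41.9% of gained regions in iPSC, against 34.5% and 25.9% with all peaks. Regions covered at days 2 and 6 but in none of the later lists or at day 0 made up 25.6% of the lost regions. Gained regions present in iPSC and absent at day 0 numbered 4970 (18.5%). A further 8225 gained regions (30.7%) were in none of the other 6 lists, against 3630 lost regions (14.6%). These shares are not on an equal footing in depth. The lists next to day 4 had background pileups of 3.08 (day 2) and 2.12 (day 6). Those next to day 10 had 0.682 (day 8) and 0.248 (day 12).

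Kept and changed regions lay in different parts of the genome. A gene end was taken as the RefSeq start site where the promoter table had one, which was so for 17491 of 21775 protein-coding genes, and otherwise as either end of the gene. Of the kept regions, 59.7% (58.9 to 60.4) lay within 1 kb of a gene end, against 5.49% (5.21 to 5.78) of lost and 9.44% (9.09 to 9.79) of gained regions. The median distance to a gene end was 0.367 kb for kept, 53.3 kb for lost and 24.7 kb for gained regions. Lost regions lay more than 100 kb from any gene end in 34.3% of cases and gained regions in 17.7%. Among regions in the better-scored 50% of their own list, the shares by a gene end were 4.02% for lost and 11.5% for gained regions. With both lists limited to their better-scored 50%, they were 7.58% and 19.5%. Gained regions were thus by a gene end more often than lost ones in each of these sets. By chromosome, gained regions were 47.9% (chromosome 18) to 58.5% (chromosome 11) of the changed regions of each autosome.

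Most covered gene ends were covered at both stages. Of the 21775 genes, 10831 (49.7%) had an end covered at both stages, 777 (3.57%) at day 4 only and 1748 (8.03%) at day 10 only. Of the ends covered at day 4 only, the day 2 list covered 92.7%, the day 8 list 33.6% and the iPSC list 60.4%. Ends covered at day 10 only were covered in 72.4% at day 8 and 68.1% in iPSC, and also in 69.7% at day 2, the deepest list. Each region was assigned to the protein-coding gene whose span was nearest, up to 100 kb away. On this count 6590 genes (30.3%) had more gained than lost regions and 4035 genes (18.5%) had more lost than gained. Over all genes, the median difference was 0 and the mean 0.198. The regions assigned to any gene were 24204 gained and 19895 lost. These shares and counts are the background for the gene lists that follow.

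The gene lists overlap in a few members, such as Prrx1, Twist2, Pdgfra, Klf5 and Krt8. The 9 mesenchymal transition factors had 56 lost and 20 gained regions, and 8 of the 9 had more lost than gained (median difference -4). Prrx1, a homeobox factor of limb and connective tissue mesenchyme, had 9 lost, 1 gained and 1 kept region. Twist2, a factor that keeps connective tissue precursors undifferentiated, had 8 lost, 1 gained and 0 kept regions. Within 1 kb, the ends of both genes had a peak at days 0, 2, 4 and 6, and in none of days 8, 10, 12 and iPSC. Just outside that window, Prrx1 had a peak at day 10, from 1.12 kb past the start (fold 3.90). In iPSC, peaks began 1.30 kb past the Prrx1 start (fold 3.10) and 1.10 kb past the Twist2 start (fold 4.44). Tcf4, an E-protein partner of Twist factors, had 18 lost and 10 gained regions, with its end covered at all 8 stages.

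Within 60 kb of the Prrx1 start, the lists of days 0, 2, 4 and 6 held 7, 13, 8 and 8 peaks, and those of day 8, day 10, day 12 and iPSC held 0, 1, 0 and 2. Around Twist2 the same counts were 6, 12, 7 and 11, then 0, 1, 0 and 3. Both loci were thus densely covered up to day 6 and almost bare at day 10. Around Foxa2, a pioneer factor of endoderm, the counts were 1, 5, 1, 1, 5, 9, 6 and 7 in the same order. Around Epcam they were 3, 3, 3, 2, 7, 5, 3 and 7.

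**Figure D2:**
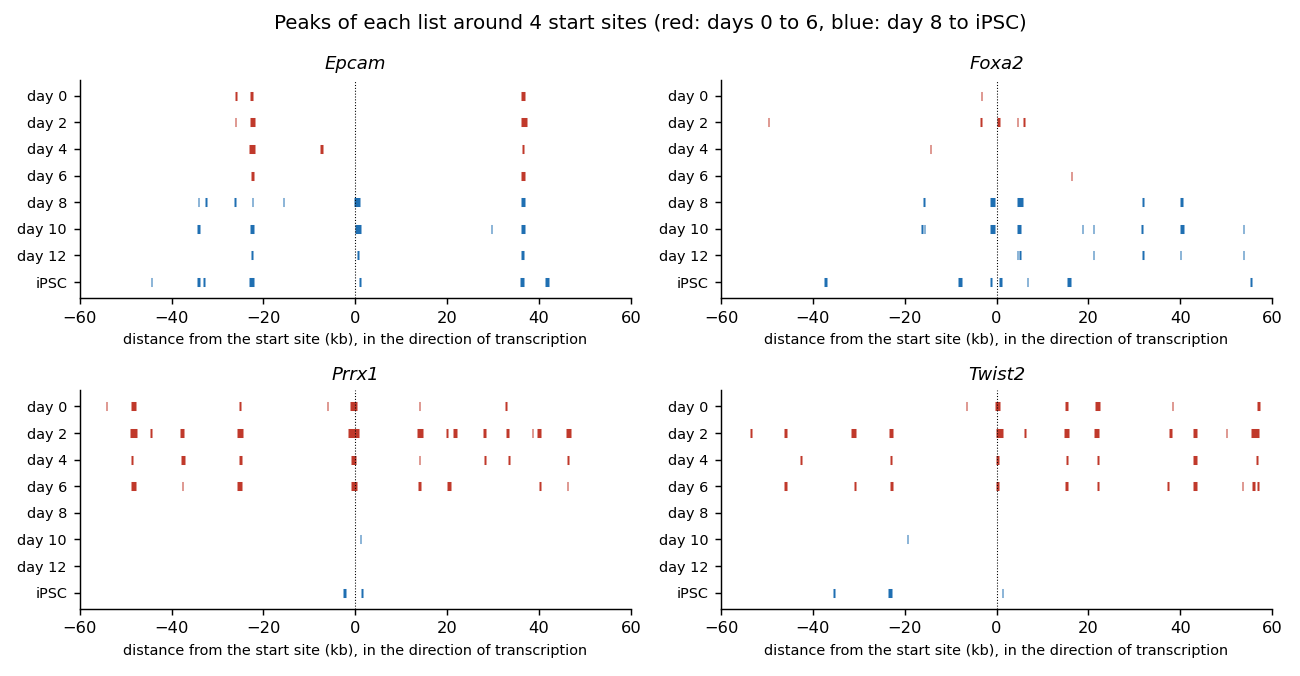
Peaks of each list (rows) by distance from the start site in kb (x axis, positive in the direction of transcription) around Epcam, Foxa2, Prrx1 and Twist2; each mark spans 1 peak, red for days 0 to 6 and blue for day 8 to iPSC, and the dotted line is the start. Within 60 kb, Prrx1 has 8 peaks at day 4 and 1 at day 10, and Foxa2 has 1 at day 4 and 9 at day 10.

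Zeb1, the repressor of epithelial genes, went in separate directions by place. It had 6 lost and 1 gained region, while its own gene end had a peak at day 10 and not at day 4, with peaks also at days 2, 6, 8 and 12 and in iPSC. With regions assigned only within 20 kb, its difference turned from -5 to 1. Snai1 had 3 lost and 1 gained region and Zeb2 7 lost and 3 gained, both named after their values were seen.

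The 24 fibroblast and mesenchyme genes had 75 lost and 53 gained regions. In this list 14 genes had more lost than gained and 7 the reverse (median -1), and 7 ends were covered at day 4 only against 1 at day 10 only. The ends at day 4 only included those of Lum, a corneal and connective tissue proteoglycan, and Dpt, a matrix protein of dermis, although Dpt had 6 gained and 2 lost regions. Dcn, the proteoglycan decorin, had 6 lost and 0 gained regions. The 1 end at day 10 only was that of Pdgfra, a receptor of both fibroblasts and primitive endoderm, which had 13 gained and 4 lost regions. That end also had peaks at days 2, 6 and 8. Its fold at day 10 was 2.76, against a list median of 6.10. Of the 24 ends, 18 were covered at day 4, 12 at day 10 and 12 in iPSC. The number covered at both day 4 and day 10 was 11. Coverage of these ends at day 10 was thus no greater than in iPSC. Col1a1, the main collagen of fibroblasts, had a peak at its end in all 8 lists. The ends of Pdgfrb and Fap were covered at day 4 and not at day 10, and that of Col3a1 at neither.

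Collagen and matrix genes had 78 lost and 45 gained regions, with 12 of 22 genes more lost and 4 more gained (median -1.5). Col6a3, a collagen of microfibrils, had 9 lost and 1 gained region and an end covered at days 2, 4 and 6 alone. The neighbours Col4a1 and Col4a2, which encode basement membrane collagen and share a divergent start, had 8 lost and 3 gained, and 3 lost and 11 gained regions. Assignment to the nearer span divides the regions of this pair. Among contractile genes, the ends of Acta2, smooth muscle actin, and Tpm2, a tropomyosin, were covered at days 0, 2, 4 and 6 and in no later list. The contractile list as a whole nevertheless had 19 lost and 37 gained regions, with 10 gained at Myh9, a non-muscle myosin.

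Epithelial genes had the most gene ends covered at day 10 only of any list. Of the 24 epithelial junction and keratin genes, 13 had an end covered at day 10 only and 0 at day 4 only, against 8.03% and 3.57% of all genes. The list had 7 lost and 64 gained regions, and 20 genes had more gained than lost (median 2). The end of Epcam had peaks at day 8 (fold 6.26), day 10 (8.05), day 12 (7.77) and in iPSC (3.86), and none from day 0 to day 6. Cdh1, which encodes E-cadherin, had 8 gained, 0 lost and 0 kept regions, with an end covered at day 2 and from day 8 on. Dsg2 and Dsp, of the desmosome, had 7 and 6 gained and 0 lost regions, and their ends were covered at both stages. Cldn4 and Krt8 had ends at day 10 and not day 4, but also at days 2 and 6. Krt8, Krt19, Pkp3 and Spint2, all with ends in the day 10 only class, had peaks there in the day 0 list too. The day 2 list, the deepest, covered 16 of the 24 ends, whereas the day 4 list covered 7. Ends of this class were thus not all without peaks before day 4.

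Among the 12 epithelial regulators, 11 had more gained than lost regions (59 gained, 11 lost, median 3), and 5 ends were covered at day 10 only. Grhl2, a grainyhead factor that activates junction genes, had 12 gained and 1 lost region. Ehf, an ETS factor of epithelia, had 11 gained and 0 lost or kept regions, and its end had no peak in any list. Klf5, an epithelial and pluripotency factor, had 11 gained and 1 lost region beside an end covered at all stages. The 1 gene with more lost than gained regions was Trp63, the factor of stratified epithelium, with 4 lost and 0 gained regions, named after its values were seen.

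**Figure D3:**
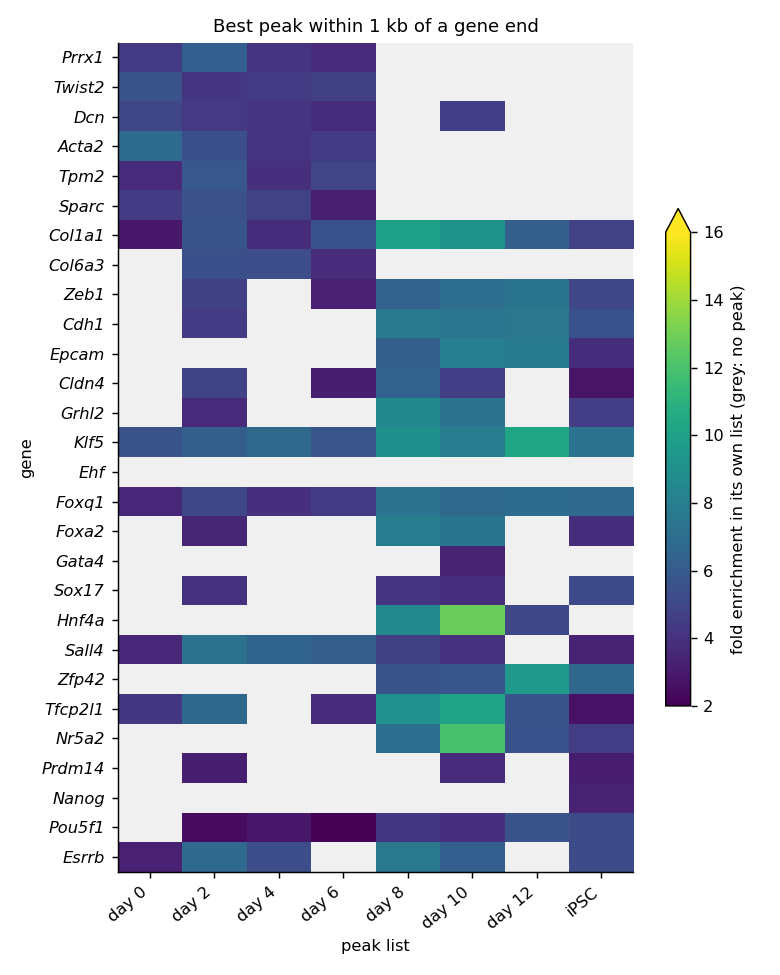
Fold enrichment (colour, as the authors' caller gave it and relative to its own list) of the best peak within 1 kb of a gene end, for selected genes (rows) in each list (columns); grey is no peak. Prrx1, Twist2, Acta2, Tpm2 and Sparc have peaks only up to day 6, and Epcam, Hnf4a, Zfp42 and Nr5a2 have none before day 8.

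MicroRNA loci of the same transition lay near changed regions. The clustered Mir200b, Mir200a and Mir429 had no peak within 10 kb in the lists of days 0, 2, 4 and 6. All 3 had a gained region within 10 kb at chr4:156059390-156060093, covered at days 8, 10 and 12 and in iPSC. Mir200a and Mir429, but not Mir200b, also had one within that distance at chr4:156044606-156045363, covered at days 8, 10 and 12. The second cluster, Mir200c and Mir141, had a gained region at chr6:124718531-124719041, 141 bp from the Mir200c hairpin, covered at day 10 and in iPSC. Near Mir199a-1, a lost region at chr9:21496768-21497145 was covered at days 0, 2, 4 and 6, with no peak within 10 kb from day 8 on. The other loci of this group differed. Mir199a-2 had 3 kept, 0 lost and 2 gained regions within 10 kb, Mir214 had 2 kept, 0 lost and 1 gained, and Mir199b had 2 lost and 2 gained.

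The extraembryonic endoderm list had the largest excess of gained over lost regions of the 29 lists. Its 16 genes had 103 gained and 23 lost regions, 14 had more gained and 0 more lost (median 4.5), and 8 ends were covered at day 10 only. Foxa2 had 15 gained and 2 lost regions. Gata4 and Sox17, which specify primitive endoderm, had 8 gained and 0 lost each. An end of Gata4, a gene without a listed start site, was covered at day 10 alone. That peak was weak, with a fold of 3.41 and a pileup of 11, against list medians of 6.10 and 17. Hnf4a had an end covered at days 8, 10 and 12, with a fold of 12.8 at day 10, where the median peak of the list had 6.10, and no peak in iPSC. Of the 103 gained regions, 61 were covered at day 8, 42 at day 12, 15 in iPSC and 6 at day 0. That 14.6% in iPSC compares with 27.0% of all gained regions assigned to a gene.

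The 26 pluripotency genes had 90 gained and 29 lost regions, 18 with more gained and 3 with more lost (median 1.5), and 8 ends at day 10 only against 1 at day 4 only. Zfp42 had 3 gained and 0 lost regions, with an end covered at days 8, 10 and 12 and in iPSC. Tfcp2l1, a factor of naive pluripotency, had 8 gained and 1 lost region, and Prdm14, a repressor of differentiation signals, had 7 gained and 0 lost. The ends of Tfcp2l1 and Klf4, covered at day 10 and not day 4, were also covered at days 0, 2 and 6. The 3 genes with more lost regions were Nanog (2 lost, 1 gained), Tdgf1 and Trim28 (1 lost and 0 gained each). Tdgf1, which had the 1 end at day 4 only, and Trim28 were named after their values were seen. Sall4, shared by pluripotent and endoderm cells, had 7 gained and 0 lost regions, with an end covered at both stages. The ends of Pou5f1 and Sox2 were covered at both day 4 and day 10, and that of Nanog in iPSC alone. At Pou5f1 the fold was 2.93 at day 4 and 3.91 at day 10. The local background pileup there was high, at 12.3, 14.1 and 164 at day 4, day 10 and in iPSC. The background pileups of these lists were 1.23, 0.968 and 1.90. The origin of the reads at Pou5f1 was not tested. Lin28a had 3 gained regions and an end with no peak in any list. Of the 90 gained regions, 51 were covered at day 8 and 35 in iPSC.

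**Figure D4:**
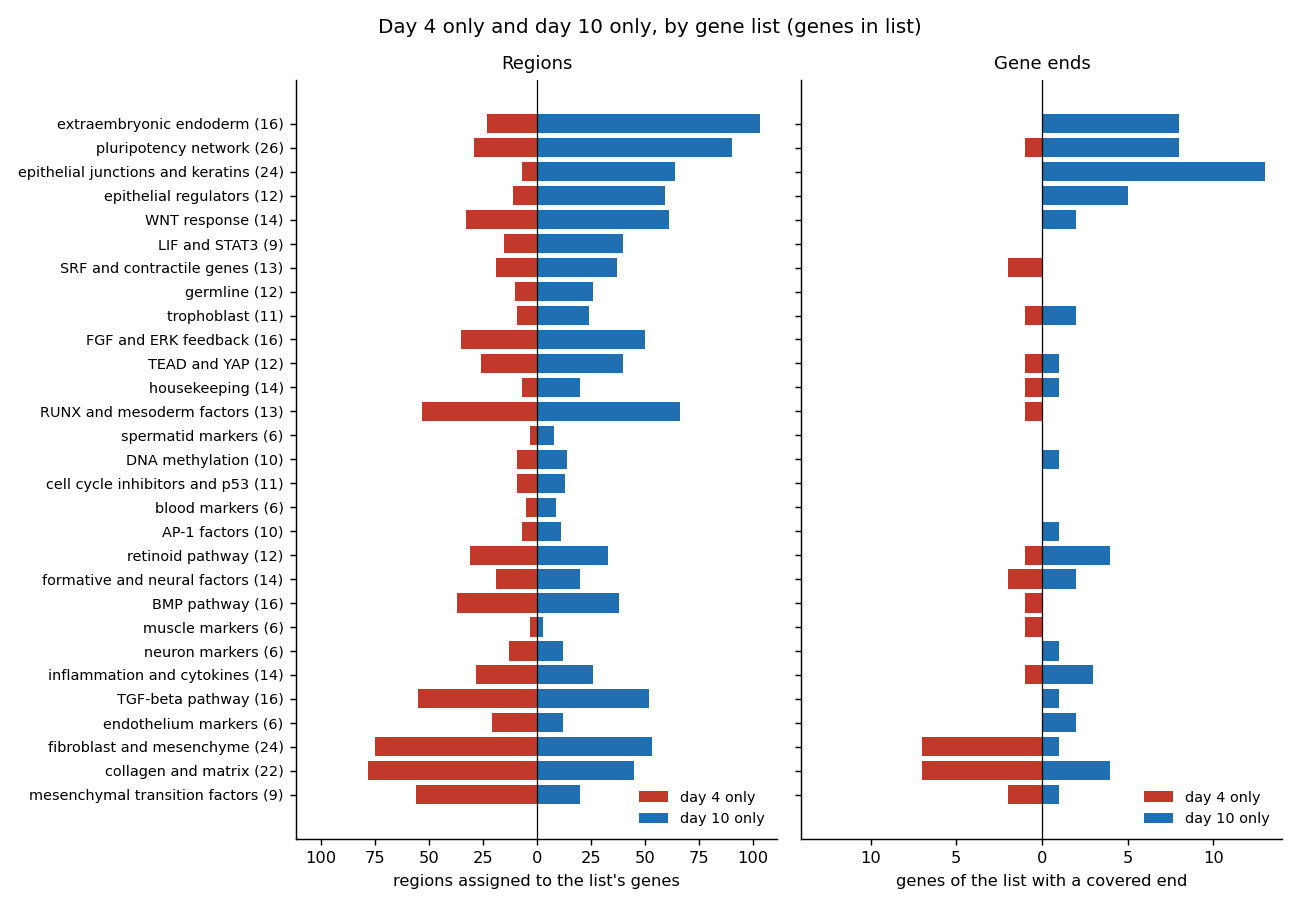
Number of day 4 only (red, left) and day 10 only (blue, right) regions assigned to the genes of each list (left panel) and of genes with an end covered at one stage only (right panel); the number of genes in each list is in brackets. Extraembryonic endoderm has 23 lost and 103 gained regions, and mesenchymal transition factors 56 and 20.

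Signalling lists moved less evenly. The LIF and STAT3 list had 40 gained and 15 lost regions, of which Lifr, the LIF receptor, held 15 gained and 3 lost. WNT response genes had 61 gained and 33 lost, with 9 gained at Dkk1, a secreted WNT inhibitor. TGF-beta pathway genes had 52 gained and 55 lost, BMP pathway genes 38 and 37, and retinoid genes 33 and 31. The AP-1 factor genes had 11 gained and 7 lost regions. TEAD and YAP genes had 40 gained and 26 lost, RUNX and mesoderm factors 66 and 53, and FGF and ERK feedback genes 50 and 35. The RUNX and mesoderm list was close to the balance of all assigned regions (24204 gained and 19895 lost).

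The remaining lists were for other cell types or for reference. Trophoblast genes had 24 gained and 9 lost regions, and germline genes 26 and 10, with 9 gained at Kit, the receptor of stem cell factor. Housekeeping genes had 20 gained and 7 lost, 14 of the gained at Ywhaz. Formative and neural factors had 20 gained and 19 lost, inflammation and cytokine genes 26 and 28, cell cycle inhibitors and p53 genes 13 and 9, and DNA methylation genes 14 and 9. Blood markers had 9 gained and 5 lost, endothelium markers 12 and 21, neuron markers 12 and 13, muscle markers 3 and 3, and spermatid markers 8 and 3. Of 6 ends in each marker list, blood had 1 covered at both stages. Endothelium went from 1 at day 4 to 3 at day 10, neuron from 2 to 3, muscle from 2 to 1, and spermatid had 0 at both. Their part in the results was not tested.

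The genes with the largest excess of regions were not confined to these lists. Rad51b, a DNA repair gene, had 39 gained and 20 lost regions. Hes1, a Notch target, had 18 gained and 1 lost, and Ntn4, a netrin of basement membranes, had 13 gained and 0 lost. On the other side, Dlg2, a synaptic scaffold, had 26 lost and 3 gained, Rbms3, an RNA-binding protein gene, 38 and 16, and Gli2, a Hedgehog effector, 24 and 3.

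The highest-scored lost regions were wide and were seen early. The highest, at chr1:98047070-98048243 in the body of Pam, a peptide-amidating enzyme, spanned 1174 bp and was covered at days 0, 2, 4 and 6. The highest-scored gained regions were mostly short, and the reads under them were not examined here. The highest, at chr11:30888298-30888520 in the body of Gpr75, spanned 223 bp with a fold of 38.6. It was covered at days 8, 10 and 12, and not in iPSC. The next, at chr1:112457345-112457756, spanned 412 bp with a fold of 42.0 and was covered at days 6 to 12. Of the 5 gained regions with the highest score, 4 spanned 206 to 412 bp, under the 434 bp median of the day 10 list. The highest-scored kept region, at chr2:98666570-98667312, had a pileup of 6489 at day 4 and 7074 at day 10 and was covered in every list. The median summit pileups of these lists were 15 and 17. Peaks were not screened here for loci prone to artefacts, so this region may not reflect open chromatin.

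Start windows were grouped by the stage whose peaks covered them. A gene with several start sites can have windows in several groups. Of 21262 windows, 10322 were covered at both stages, 754 at day 4 only, 1679 at day 10 only and 8507 at neither. The ratio of observed to expected CpG, which is high in CpG islands, had a median of 0.794 for both stages, 0.489 for day 4 only, 0.593 for day 10 only and 0.200 for neither. Windows covered at 1 stage only were thus intermediate in CpG.

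The CACCTG E-box was in 29.7% (27.5 to 32.0, 499 of 1679) of the day 10 only windows. It was in 17.6% (15.0 to 20.6) of day 4 only windows, 16.5% of windows covered at both stages, 21.9% of those covered at neither and 19.7% of all windows. In windows split by GC content, a split added after seeing the data, the share in day 10 only windows was nearer to that in windows covered at neither stage. Below 50% GC it was 23.5% (18.3 to 29.3) for day 10 only and 17.2% (16.1 to 18.3) for neither. At 50 to 60% GC it was 30.2% and 28.6%, at 60 to 70% GC 34.9% (30.7 to 39.4) and 31.0% (27.5 to 34.7), and from 70% GC 26.0% and 22.5%, with overlapping intervals in these 3 bands. Day 4 only windows held it in 11.5%, 21.0%, 21.0% and 13.5% of cases from the lowest band to the highest, and windows covered at both stages in 11.8%, 15.7%, 17.5% and 17.3%. Among day 10 only windows, it was 36.0% where day 0 had no peak and 22.5% where it had one. The same 2 shares were 35.1% and 27.3% for day 2, and 34.8% and 22.7% for day 6. They hardly differed for day 8 (29.3% and 29.9%), day 12 (30.0% and 29.3%) and iPSC (29.4% and 29.9%). These splits by list were also added after seeing the data and were not made within GC bands. Other E-boxes, added after seeing the data, differed less: CAGCTG was in 19.4% of day 10 only, 23.3% of day 4 only and 15.6% of all windows, and CACGTG in 8.99%, 6.10% and 7.84%.

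In percentage points, the other motifs differed less between day 4 only and day 10 only windows, although the rare grainyhead motif differed more as a ratio. AP-1 sites were in 7.96% (6.13 to 10.1) of day 4 only, 6.25% (5.14 to 7.52) of day 10 only and 6.99% of all windows. TEAD sites were in 13.0% of day 4 only, 14.4% of day 10 only and 13.6% of all windows, and RUNX sites in 15.3%, 12.8% and 15.0%. The GATA motif was in 6.90%, 6.79% and 6.92%, the octamer in 1.33%, 1.61% and 1.66%, and the grainyhead motif in 1.19%, 2.38% and 1.95%. The cyclic AMP response element was in 1.33%, 1.73% and 2.23%. GC boxes were in 45.5%, 54.9% and 46.2%, and NF-Y sites in 30.8%, 30.6% and 38.2%. A match is a description of these letters in a window and not of a bound factor.

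**Figure D5:**
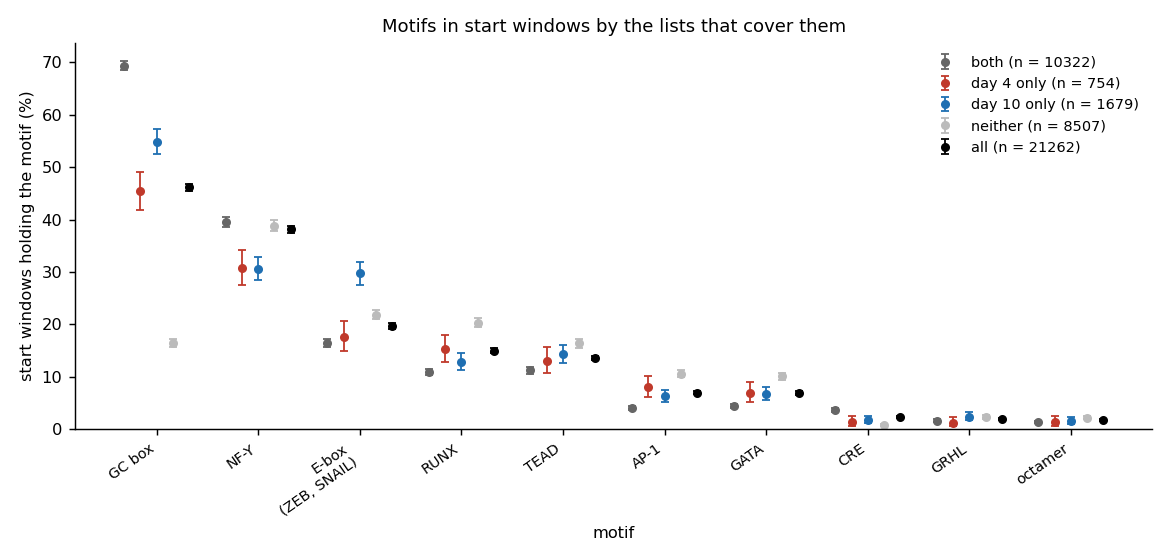
Share of start windows (y axis, percent) holding each motif (x axis) by whether a peak of day 4, day 10, both or neither covers them, with all windows in black; bars are exact 95% intervals for counting error. The E-box of Zeb and Snail factors is in 29.7% of day 10 only windows and 17.6% of day 4 only windows.

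All 8 epithelial junction genes with a day 10 only start window carried the CACCTG E-box: Cldn3, Cldn4, Cldn6, Cldn7, Crb3, Epcam, Krt8 and Spint2. The 4 junction genes with a window covered at neither stage carried it too, and of 4 covered at both stages 2 did. Among 3 extraembryonic endoderm genes with a day 10 only window, 0 carried it, while another start window of Hnf4a, covered at neither stage, did. Among 6 pluripotency genes with a day 10 only window, 2 carried it (Tfcp2l1 and Zfp42). The E-boxes of Epcam began 187 and 19 bases before the start in the window shown above.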

How the data were processed

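ATAC-seq was made in 16 mouse samples at 8 stages, 2 per stage. The submitters' processing notes name the peak caller MACS2 2.1.2, the aligner Bowtie2 2.2.5, the trimmer fastp 0.20.1, SAMtools, deepTools 3.4.3 and build mm10. No source used here gives their settings or says if cut positions were corrected for the transposase. For each stage the authors deposited a single list of peaks with a score, a fold enrichment (a ratio) and a −log10 p-value at each summit. These values ranked peaks inside their own list, described single peaks and gave the pileups.

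Summit pileup and local background were recovered from the fold and −log10 p of each peak, within 0.001, for 100% of the peaks at day 4 and day 10, and the method was tested on simulated data. Of the deposited peaks, 48 at day 4 and 53 at day 10 lay on other sequences and were left out. Regions, gene assignment (100 kb) and gene ends (1 kb) are defined in the text. Genes came from RefSeq GRCm38.p6, without 108 entries that were taken to lie on unplaced scaffolds because they sit before the first peak of any chromosome but Y. Analyses used Python 3.11.15, numpy, scipy and pandas. The named genes follow a rule: a set of 28, up to 4 per list by difference and by gene-end change, the 10 with the largest excess each way, and the highest-scored regions. The members, gene lists and rule were chosen with earlier results of these data known. Some genes are not reported here. Alternatives tried are given in the closing section.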

Additional observations from a re-analysis of the deposited data

How the results depend on the processing

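Each stage had 1 deposited list, so leaving out a replicate was not possible. No paired analysis was possible because the replicate numbers of the labels are not carried by the lists. Scaling day 4 to the background of day 10 kept 40686 of its 41647 peaks and left 24032 lost and 26909 gained regions. An overlap of at least 50% of the shorter peak, lists cut to equal length, merging across 500 bp, a 2.5 kb window and, added after seeing the data, either end of every gene also left every count within 1.5 times. Of 61 recomputed counts, 48 did so. Of 41 recomputed shares, 28 moved beyond their counting interval: gained regions covered at day 8 ranged from 47.6% to 81.0%, gained regions covered in iPSC from 25.9% to 41.9%, and gained regions by a gene end from 9.44% to 19.5%. In the better-scored 50% of each list there were 9743 kept, 11047 lost and 12008 gained regions, with 5640 lost regions covered at day 0 and 837 by a gene end. Where only changed regions had to lie in the better-scored 50% of their own list, 9053 were lost and 9500 gained. Of these, 4034 lost regions were covered at day 0 and 3177 gained regions in iPSC, and 364 lost and 1095 gained regions lay by a gene end. The genes with an end at day 4 only were then 264, and at day 10 only 892. These settings test fewer peaks by construction.

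Some differences turned sign, and the cause was not tested. With all peaks they were -5 to 5, except for Spred2 at 8. For gained minus lost regions with better-scored lists, formative and neural factors came to -4, retinoid genes -7, neuron markers 1, Bmp7 2 and Spred2 -1. With better-scored changed regions, TGF-beta genes came to 3, formative and neural factors -4, retinoid genes -4, DNA methylation genes -1, neuron markers 2 and Bmp7 1. Within 20 kb, BMP genes came to -5, retinoid genes -1, inflammation genes 5, neuron markers 1 and Zeb1 1. With lists of equal length BMP genes came to -2. For day 10 only minus day 4 only ends in better-scored lists, mesenchymal transition factors came to 1, BMP genes 2, inflammation genes -3 and neuron markers -1; with better-scored changed regions inflammation genes came to -1. The gained minus lost differences of the mesenchymal transition (-37 to -13), epithelial junction (28 to 57), epithelial regulator (23 to 48), extraembryonic endoderm (45 to 83) and pluripotency (34 to 61) lists kept their sign under every alternative.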

Other observations

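Of the gained regions, 3473 (13.0%) were covered at both day 2 and day 6, on either side of the day 4 list, which is shallower than those of day 2 and day 6. Of the lost regions, 2533 (10.2%) were covered at day 8 or day 12. Gained regions by a gene end were covered more often at day 2 (63.0%) than gained regions elsewhere (20.8%), and lost regions by a gene end were covered more often in iPSC (47.9%) than lost regions elsewhere (8.21%).

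Retinoid genes had 4 ends covered at day 10 only (Rxra, Cyp26a1, Crabp2 and Aldh1a2) and 1 at day 4 only (Stra6). This difference of 3 was 0 with the better-scored 50% of each list and 1 with better-scored changed regions. Near the miR-290 cluster, whose miR-294 shares a seed with miR-302b, 3 gained regions lay within 10 kb, with 3 peaks at day 10, 0 at days 0, 4 and 6, and 3 at day 2. A gained region at chr3:127544649-127545115, 381 bp from the Mir302a hairpin, had a fold of 10.4 at day 10 and was also covered at days 8 and 12 and in iPSC.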
